A study of Mus musculus with 10 samples.

Results

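Elastic fibre and microfibril genes encode the proteins that give soft tissue its recoil. The 10 genes described here are Fbn1, Fbn2, Eln, Fbln1, Fbln2, Fbln5, Mfap2, Mfap4, Mfap5 and Emilin1, taken by name from the 27151 genes measured, and all 10 passed the filter on low values. Tongue RNA was sequenced from C57BL/6J mice exposed to 4NQO, a chemical carcinogen that induces lesions of the oral epithelium, so every group carries that exposure and an unexposed tongue is not analysed here. 4 libraries came from mice given vehicle and 6 from mice given SP2509, an inhibitor of the histone demethylase LSD1, the product of Kdm1a. The titles of the 6 treated libraries carry an h after the compound name whose meaning is not stated. Dose, treatment time, age and sex are not given in the labels either. Nothing in them ties each library to a separate animal, and a p-value here reflects how far these libraries scatter, part of which may be technical. The series title points to antitumour immunity under LSD1 inhibition, and the comparison described here asks how the transcripts of the elastic fibre system stood under the treatment.

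An elastic fibre has a core of crosslinked elastin laid down on a scaffold of microfibrils. Fibrillin-1 and fibrillin-2 polymerise into the microfibrils, and the microfibril-associated proteins MAGP-1 (Mfap2), MAGP-2 (Mfap5) and MFAP4 attach to them. Fibulins and EMILIN-1 lie at the boundary between elastin and microfibrils, and fibulin-5 helps to bring tropoelastin and the crosslinking enzymes to the scaffold. Microfibrils also hold latent TGF-beta through the latent TGF-beta binding proteins. In the tongue, fibroblasts, the walls of vessels and the connective tissue around muscle are the usual sources.

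The values are normalised reads, that is read counts divided by 1 size factor per library. A vehicle library held 9180844 to 14768955 whole reads and a treated one 15748571 to 19375555, and mitochondrial genes took 35.3% to 52.1% of the reads in vehicle and 23.98% to 32.2% in SP2509. Kdm1a, the gene of the inhibited enzyme, stood at 737 ± 68.1 (SD, n = 4) in vehicle and 748 ± 92.3 (SD, n = 4 units) in SP2509, which is no check of the labels because the inhibitor acts on the protein. SP2509 replicates 1 and 2, and replicates 4 and 5, lay unusually close together: their spread over the Poisson expectation rose by 1.09 and 0.209 from genes with few reads to genes with many, against 8.28 to 155 in the other 19 pairs of libraries of one group. The lowest of those 19, at 8.28 and 9.77, were SP2509 replicate 3 with replicates 1 and 2, and the rest were at 20.4 or more. Replicate 3 was kept as a unit of its own. SP2509 replicates 1 and 2 were therefore averaged to 1 unit, as were replicates 4 and 5, in every SP2509 mean and SD below (n = 4 units). Fold changes and their SEs count the libraries singly unless these pairs are said to be merged or summed. Each call is given also with the pairs merged. Markers of tongue epithelium and skeletal muscle were abundant in every library, with summed levels of at least 69494 for 11 keratinocyte genes and at least 188875 for 12 muscle genes.

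The 10 genes differed widely in level. Per kilobase of exon, Mfap4 was the highest of them in vehicle at 479 ± 144 normalised reads (SD, n = 4), followed by Eln at 264 ± 86.7, Mfap5 at 211 ± 47.0 and Fbln2 at 175 ± 53.3. Fbln1 at 58.3 ± 18.9, Mfap2 at 52.4 ± 23.1, Fbn1 at 49.6 ± 10.6, Emilin1 at 40.6 ± 6.03 and Fbln5 at 35.9 ± 11.0 formed a lower tier, and Fbn2, the fibrillin better known from embryonic tissue, was last at 5.34 ± 2.78. Neighbours in this order stood further apart than their SDs only at the step from Fbln2 to Fbln1 and at the step from Fbln5 to Fbn2. On the same per-kilobase scale the SP2509 order was Mfap4 at 385 ± 70.6, Fbln2 at 247 ± 41.2, Mfap5 at 227 ± 19.4, Eln at 189 ± 32.6, Fbln1 at 95.2 ± 22.3, Mfap2 at 60.7 ± 6.14, Emilin1 at 40.9 ± 8.08, Fbln5 at 40.4 ± 13.5, Fbn1 at 30.1 ± 2.21 and Fbn2 at 4.84 ± 2.24 (SD, n = 4 units). There the pairs Fbln2 and Mfap5, Mfap5 and Eln, Emilin1 and Fbln5, and Fbln5 and Fbn1 lay within their SDs. Eln thus stood behind Mfap4 alone in vehicle and below Mfap4, Fbln2 and Mfap5 in SP2509, and Fbn1 stood above Emilin1 and Fbln5 in vehicle and below both in SP2509, which describes these means and was not tested as an order.

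Fbn1 fell under SP2509 and was the only one of the 10 genes to pass the test in the 10 libraries. None of the 10 rose. Tested by limma across 17088 genes at a Benjamini-Hochberg adjusted p under 0.05, 4.15% of all tested genes were called lower and 4.95% higher (709 and 846 genes, against 1060 and 666 after quantile normalization), so 1 lower and 0 higher among 10 genes is close to that background. With the close pairs merged no gene of the whole table passed (lowest adjusted p = 0.0718, with 3632 genes at an unadjusted p under 0.05), nor with edgeR on the summed pairs (lowest adjusted p = 0.0744, with 3804 such genes). The log2 fold changes of the 10 genes, SP2509 over vehicle on the log2(value + 1) scale, were positive in 7 and negative in 3, with a median of 0.07 beside 0.02 for all tested genes, and of the 7 Fbn2 turned negative under TMM scaling and Emilin1 under quantile normalization. The direction of change therefore was not shared across the set, and each gene is described in turn by its role.

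**Figure D1:**
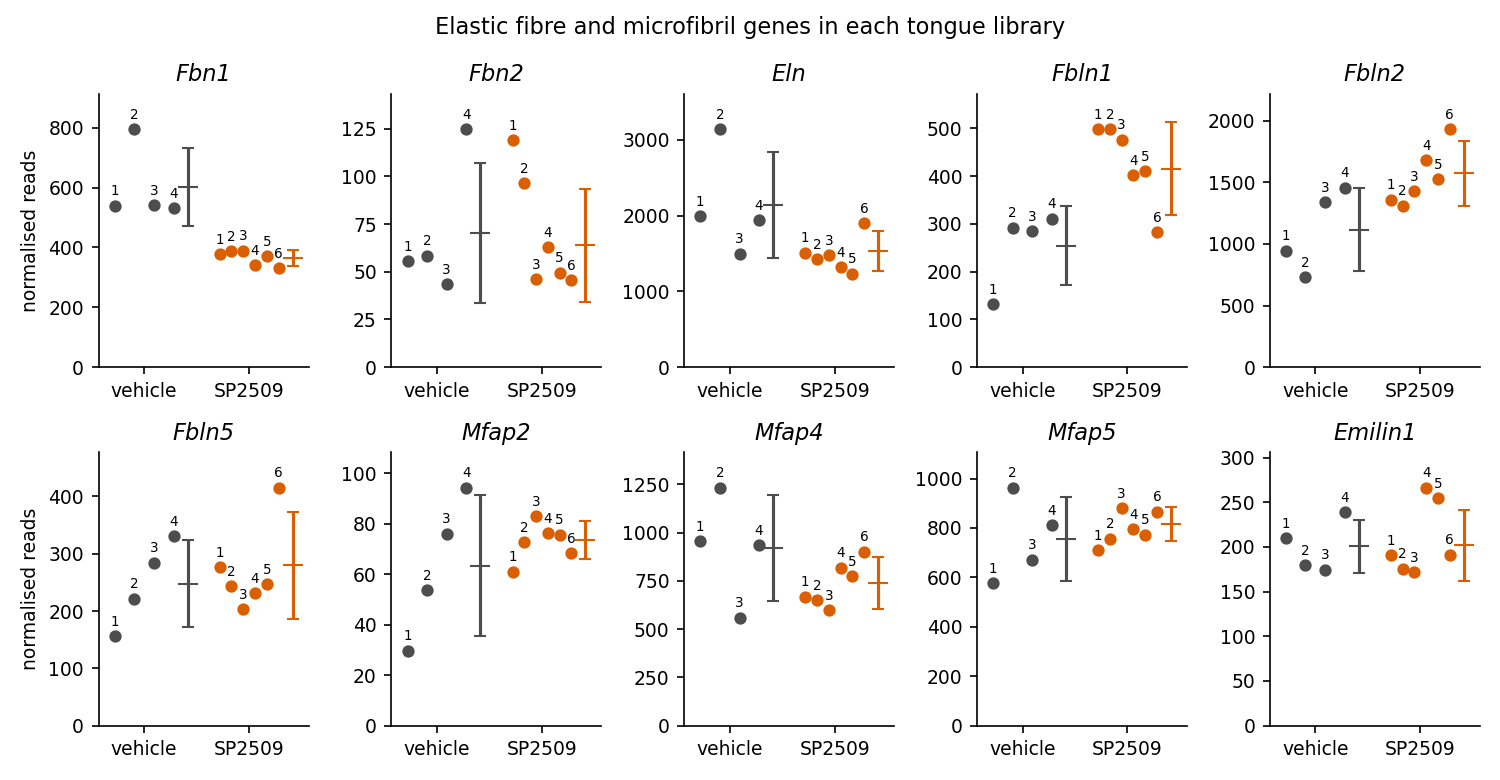
Normalised reads of the 10 genes in each library, with 4 vehicle libraries (grey) and 6 SP2509 libraries (orange) numbered by replicate. Horizontal marks with bars are the mean ± SD over 4 vehicle libraries and 4 SP2509 units (the close pairs averaged), and every axis starts at 0. Fbn1 is the gene whose groups do not overlap: all SP2509 points lie at or below 389 and all vehicle points at or above 531.

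The fibrillins are the backbone of the microfibril. Fbn1 (fibrillin-1, minus strand, chromosome 2, 125300594 to 125507993 in GRCm38) stood at 540, 795, 542 and 531 normalised reads in vehicle replicates 1 to 4. In the 6 SP2509 libraries its lowest value was 331, its median 375 and its highest 389. Every SP2509 library lay below every vehicle library, a separation seen in 5.11% of all tested genes in this direction and in 6.54% in the other. The mean was 602 ± 129 (SD, n = 4) in vehicle and 365 ± 26.7 (SD, n = 4 units) in SP2509, which is a difference of -0.69 ± 0.13 on the log2 scale (SE, 95% interval -0.97 to -0.41, limma adjusted p = 0.0135). Vehicle replicate 2 stood far above the other vehicle libraries, and without it the change was -0.55 (limma adjusted p = 0.0220). The call was lost with the close pairs merged (log2 fold change -0.70, limma adjusted p = 0.0734), with the pairs summed in edgeR (-0.72, adjusted p = 0.0744) and without SP2509 replicates 4 and 5 (-0.67, with a limma adjusted p just above the threshold). Under the other 22 alternatives it was kept.

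Fbn2 (fibrillin-2) was measured with few reads, 30 to 160 per library. Its values were 55.6, 58.4, 43.6 and 125 normalised reads in vehicle and ran from 45.6 to 119 in SP2509, with a median of 56.2. Vehicle replicate 4 and SP2509 replicates 1 and 2 were the high libraries, and the groups overlapped almost completely. The log2 fold change was 0.00 ± 0.35 (SE, 95% interval -0.76 to 0.77, limma adjusted p = 0.996), an interval that holds a change of the size seen in Fbn1.

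Eln encodes tropoelastin, the soluble unit of the elastic core (minus strand, chromosome 5, 134702593 to 134747323). It stood at 1988, 3139, 1495 and 1939 normalised reads in vehicle and at 1235, 1451 and 1901 as lowest, median and highest in SP2509. Vehicle replicate 2 was the highest library, while vehicle replicate 3 lay among the treated ones. The mean was 2140 ± 702 (SD, n = 4) against 1530 ± 264 (SD, n = 4 units), which is a log2 difference of -0.49 ± 0.19 (SE, 95% interval -0.90 to -0.09) that did not pass (limma adjusted p = 0.111, and 0.277 with the close pairs merged). It was negative in all 25 alternatives and passed in 4 of them, among them the fit without SP2509 replicate 6 (-0.57, limma adjusted p = 0.0363). Without vehicle replicate 2 it was -0.29.

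The fibulins bridge microfibrils, elastin and the surrounding matrix. Fbln1 (fibulin-1, plus strand, chromosome 15, 85205949 to 85286535) stood at 132, 292, 284 and 311 normalised reads in vehicle. Its lowest, median and highest values in SP2509 were 282, 443 and 498. SP2509 replicate 6 alone lay within the vehicle range, and the other 5 treated libraries lay above every vehicle library. The mean was 255 ± 82.7 (SD, n = 4) against 416 ± 97.3 (SD, n = 4 units). This gives a log2 fold change of 0.80 ± 0.24 (SE, 95% interval 0.27 to 1.32), which did not pass (limma adjusted p = 0.0581, and 0.175 with the close pairs merged). The change passed in 6 of 25 alternatives, including the fit without SP2509 replicate 6 (0.91, limma adjusted p = 0.0166), and without vehicle replicate 1 it was 0.51.

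Fbln2 (fibulin-2, plus strand, chromosome 6, 91212455 to 91272540) stood at 944, 728, 1339 and 1456 normalised reads in vehicle and at 1310, 1477 and 1931 as lowest, median and highest in SP2509. Vehicle replicates 3 and 4 overlapped the treated libraries and replicates 1 and 2 did not. The log2 fold change of 0.50 ± 0.19 (SE, 95% interval 0.09 to 0.92) passed neither in the 10 libraries (limma adjusted p = 0.110) nor in any of the 25 alternatives. Fbln5 (fibulin-5, minus strand, chromosome 12, 101746565 to 101819055), needed for elastic fibre assembly in the mouse, ran from 156 to 330 in vehicle and from 203 to 415 in SP2509. Its log2 fold change was 0.14 ± 0.23 (SE, 95% interval -0.36 to 0.64, limma adjusted p = 0.742), and SP2509 replicate 6 was its highest library.

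The microfibril-associated proteins decorate fibrillin. Mfap5 (MAGP-2, plus strand, chromosome 6, 122505845 to 122529290) stood at 577, 963, 672 and 812 normalised reads in vehicle and at 710, 784 and 881 as lowest, median and highest in SP2509. All 6 treated libraries lay inside the vehicle range. Its log2 fold change was 0.10 ± 0.14 (SE, limma adjusted p = 0.682), and its 95% interval of -0.20 to 0.40 does not reach the change of Fbn1. Mfap4, which binds elastin and fibrillin-1 (plus strand, chromosome 11, 61485431 to 61488900), stood at 957, 1233, 560 and 936 in vehicle and ran from 600 to 901 in SP2509. Vehicle replicate 3 was the lowest and vehicle replicate 2 the highest library of all 10, and the log2 fold change was -0.28 ± 0.19 (SE, 95% interval -0.71 to 0.14, limma adjusted p = 0.361). Mfap2 (MAGP-1, plus strand, chromosome 4, 141010418 to 141015984) was low, with 16 reads in vehicle replicate 1. It stood at 29.7, 53.7, 76.0 and 94.3 normalised reads in vehicle and ran from 61.1 to 82.9 in SP2509. Its change on the log2 scale was 0.31 ± 0.28 (SE, 95% interval -0.30 to 0.92, limma adjusted p = 0.502).

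Emilin1 (plus strand, chromosome 5, 30913402 to 30921277) encodes a glycoprotein at the elastin-microfibril interface that also restrains TGF-beta processing. It stood at 210, 180, 175 and 239 normalised reads in vehicle and ran from 172 to 266 in SP2509, where replicates 4 and 5 were the highest of all libraries. The means were 201 ± 29.8 (SD, n = 4) and 202 ± 39.9 (SD, n = 4 units). The log2 fold change was 0.04 ± 0.17 (SE, 95% interval -0.32 to 0.40, limma adjusted p = 0.893).

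**Figure D2:**
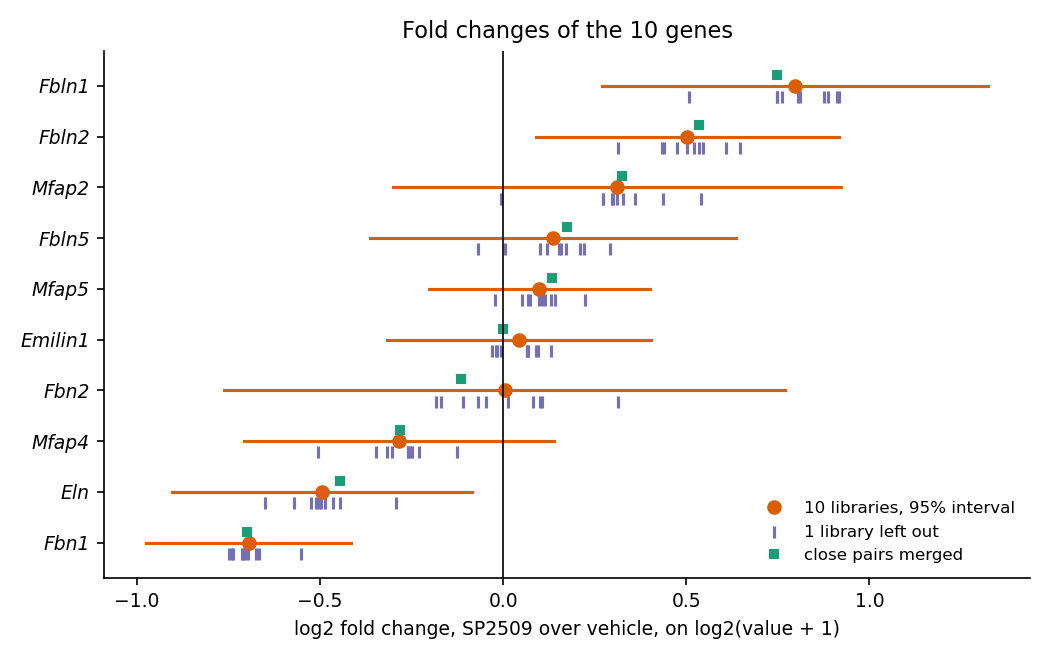
Log2 fold change of each gene, SP2509 over vehicle on log2(value + 1). Orange points and lines are the limma estimate from 10 libraries with its 95% interval, purple ticks the estimates with 1 library left out, and green squares those with the close pairs merged. The genes run from Fbln1 at 0.80 to Fbn1 at -0.69, and those 2, Fbln2 and Eln have unadjusted 10-library intervals that exclude 0. With the close pairs merged, Eln had an unadjusted limma p of 0.0734, and those of Fbn1, Fbln1 and Fbln2 stayed under 0.05.

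Single vehicle libraries stood at the ends of many of these ranges. Vehicle replicate 2 was the highest of all 10 libraries for 4 genes (Fbn1, Eln, Mfap4 and Mfap5), and vehicle replicate 1, the library with the fewest reads, was the lowest for 4 (Fbln1, Fbln5, Mfap2 and Mfap5). In vehicle the highest library exceeded the lowest 1.37-fold for Emilin1 and 3.18-fold for Mfap2, the ends of the range over the 10 genes. In SP2509 the same ratio ran from 1.18-fold for Fbn1 to 2.61-fold for Fbn2. The part of depth in this spread was not tested.

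Because these proteins are built into one structure, their transcripts were also compared with each other within each library, as a description. The reads of Fbln1 for 1 read of Fbn1 ran from 0.244 to 0.585 in vehicle and from 0.853 to 1.32 in SP2509. For Fbln2 the ratio ran from 0.915 to 2.74 in vehicle and from 3.37 to 5.83 in SP2509, and for Mfap5 from 1.07 to 1.53 and from 1.88 to 2.61. These 3 of the 9 ratios to Fbn1 did not overlap between the groups. All 9 share Fbn1, whose own groups do not overlap, and over all other tested genes the ratio to Fbn1 was separate and higher in SP2509 for 40.8% and separate and lower for 0.105%, so 3 of 9 is no more than that background. The ratio of Eln to Fbn1 overlapped, at 2.76 to 3.95 in vehicle and 3.33 to 5.74 in SP2509, as did those of Fbn2, Fbln5, Mfap2, Mfap4 and Emilin1 to Fbn1 and that of Fbln1 to Eln. A ratio within a library shows unequal change of its members and not that either stayed constant.

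Most of the 10 genes are expressed by fibroblasts, so each was set against 14 fibroblast markers of the same library. In bulk tissue, fewer cells of a type and less RNA per cell cannot be told apart. The mean log2 level of the markers differed by -0.01 between SP2509 and vehicle (exact permutation test, two-sided, p = 0.895), and their summed level ran from 13367 to 16547 in vehicle and from 14787 to 17030 in SP2509. Relative to these markers Fbn1 was lower by -0.68 on the log2 scale and no treated library reached a vehicle one (two-sided exact permutation test, p = 0.00476 with 10 libraries and 0.0286 with 8 units, each the smallest possible p). Fbln2 was higher by 0.51, again without overlap and at the same smallest p-values. How many of all tested genes separate on this marker-relative scale was not counted. On the values themselves 5.11% of them were separate and lower, and 6.54% separate and higher. Fbln1 was higher by 0.81 (exact permutation p = 0.0238 with 10 libraries and 0.0857 with 8 units). Eln was at -0.48 (exact permutation p = 0.100), and the other 6 genes lay between -0.27 and 0.32 with exact permutation p-values from 0.186 to 0.976. These are raw p-values of 10 tests. That mean averages markers of both signs, 8 positive and 6 negative, from Lum at 0.64 ± 0.21 (SE, limma adjusted p = 0.0691) to the fibrillar collagen Col3a1, the one of the 14 that passed, which fell, at -0.67 ± 0.19 (SE, limma adjusted p = 0.0427, and 0.123 with the close pairs merged). With the 3 collagen genes left out of the markers, Fbn1 was at -0.78 and Fbln2 at 0.42.

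**Figure D3:**
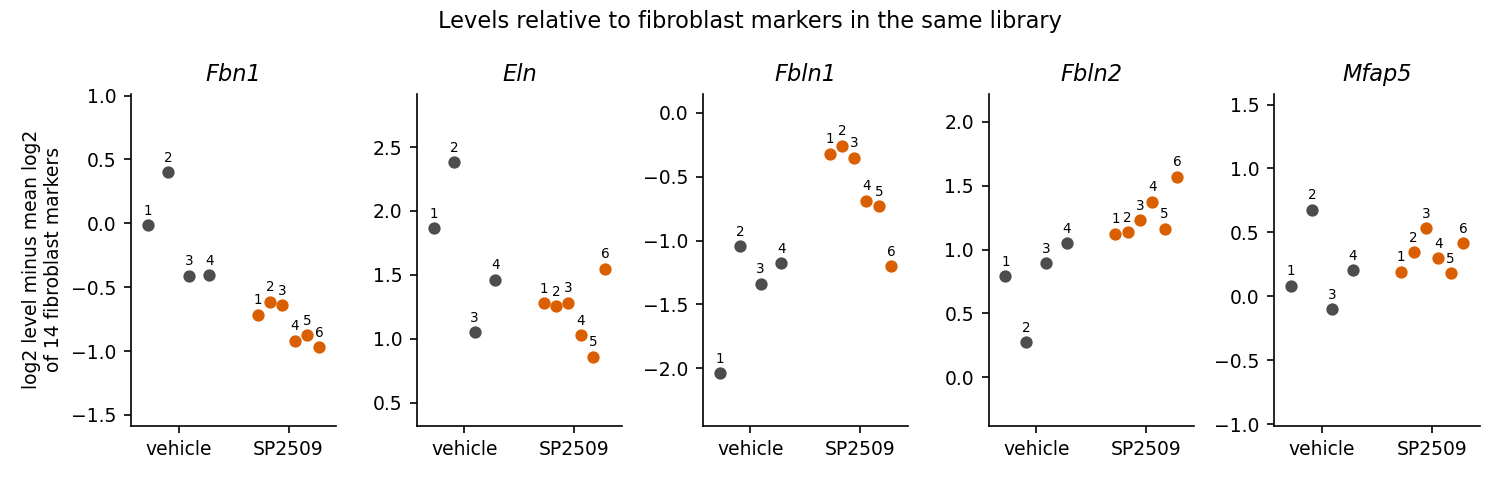
Log2 level of 5 of the genes minus the mean log2 level of 14 fibroblast markers in the same library, for 4 vehicle (grey) and 6 SP2509 (orange) libraries numbered by replicate. Each panel spans the same range of log2 units around its own centre. Fbn1 is lower and Fbln2 higher in all SP2509 libraries than in any vehicle library, while Mfap5 overlaps.

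The proteins that crosslink elastin and build the microfibril around these genes were taken as a list of 24, all tested. Of them 2 fell and 0 rose, with 11 positive and 13 negative log2 fold changes and a median of -0.07. These counts are to be read beside the 4.15% of all tested genes called lower and the 4.95% called higher. Adamtsl5, an ADAMTS-like protein that binds fibrillin microfibrils, stood at 4274 ± 685 (SD, n = 4) in vehicle and 2888 ± 584 (SD, n = 4 units) in SP2509, at -0.63 ± 0.16 (SE, limma adjusted p = 0.0359). Ltbp3, which tethers latent TGF-beta, stood at 2418 ± 256 and 1822 ± 211, at -0.42 ± 0.12 (SE, limma adjusted p = 0.0473). Adamtsl4, a fibrillin-1 partner, was at -0.83 ± 0.24 (SE, limma adjusted p = 0.0507) and Adamts10, a metalloprotease that binds fibrillin-1, at -0.34 ± 0.11 (SE, limma adjusted p = 0.0608), and neither passed. Both called genes lost the call with the close pairs merged (limma adjusted p = 0.137 for Adamtsl5 and 0.153 for Ltbp3). They passed in 12 and 11 of 25 alternatives, and leaving out any one of 8 of the 10 libraries left 0 genes of the list called. The count was 2 without vehicle replicate 3 and was 4 without SP2509 replicate 6.

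Other members of that list, named for their roles and not by size of change, did not pass. The lysyl oxidase gene Lox, whose enzyme crosslinks elastin and collagen, was at 0.78 ± 0.46 (SE, limma adjusted p = 0.290), with SP2509 replicates 4 and 5 at 343 and 308 normalised reads and all other libraries at or below 132. Loxl1, needed to maintain elastic fibres, was at 0.34 ± 0.22 (SE, limma adjusted p = 0.331). Ltbp4, which aids elastin deposition through fibulin-5, was at 0.05 ± 0.13 (SE, limma adjusted p = 0.851), and Efemp2 (fibulin-4), required for elastic fibres, at -0.07 ± 0.17 (SE, limma adjusted p = 0.835).

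A list of elastin-cleaving proteases, their inhibitors and the elastin receptor complex held 17 genes, of which 13 were tested. Of these 1 rose and 0 fell, beside 4.95% and 4.15% of all tested genes, and the median log2 fold change was 0.06. The one was Ctsl, encoding the lysosomal protease cathepsin L, at 541, 450, 857 and 682 normalised reads in vehicle and 989, 1082 and 1537 as lowest, median and highest in SP2509, without overlap. Its log2 fold change was 0.88 ± 0.18 (SE, limma adjusted p = 0.0175, and 0.0751 with the close pairs merged). Ctss, the gene of the elastinolytic cathepsin S, was at 0.62 ± 0.19 (SE, limma adjusted p = 0.0581), the metalloproteinase inhibitor gene Timp3 at 0.80 ± 0.30 (SE, limma adjusted p = 0.101) and Ctsa, which encodes a subunit of the elastin receptor complex, at -0.23 ± 0.09 (SE, limma adjusted p = 0.131). None of these 3 passed. The groups of Ctss (higher) and Ctsa (lower) did not overlap. Such a separation was seen in 6.54% of all tested genes upward and in 5.11% downward. The genes of macrophage elastase (Mmp12, -0.84 ± 0.35, limma adjusted p = 0.141) and gelatinase A (Mmp2, also one of the 14 fibroblast markers, 0.06 ± 0.12, limma adjusted p = 0.788), named for their roles, did not pass.

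Cells hold fibrillins, fibulins and EMILIN-1 through integrins and a few other receptors. Of 11 such genes, all tested, 1 rose and 0 fell, beside 4.95% and 4.15% of all tested genes. The median log2 fold change was 0.12. Itgb1, the integrin beta-1 chain, stood at 1016, 1428, 1661 and 1673 normalised reads in vehicle and at 1963, 2228 and 2454 as lowest, median and highest in SP2509, without overlap. Its log2 fold change was 0.65 ± 0.15 (SE, limma adjusted p = 0.0235, and 0.0910 with the close pairs merged). The alpha-v chain gene Itgav was at 0.36 ± 0.11 (SE, limma adjusted p = 0.0631), Itgb5 at 0.31 ± 0.11 (SE, limma adjusted p = 0.0836) and Notch1, whose protein can bind MAGP-2, at -0.50 ± 0.27 (SE, limma adjusted p = 0.242). The groups of Itgav did not overlap either, and 6.54% of all tested genes were separate and higher in SP2509.

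**Figure D4:**
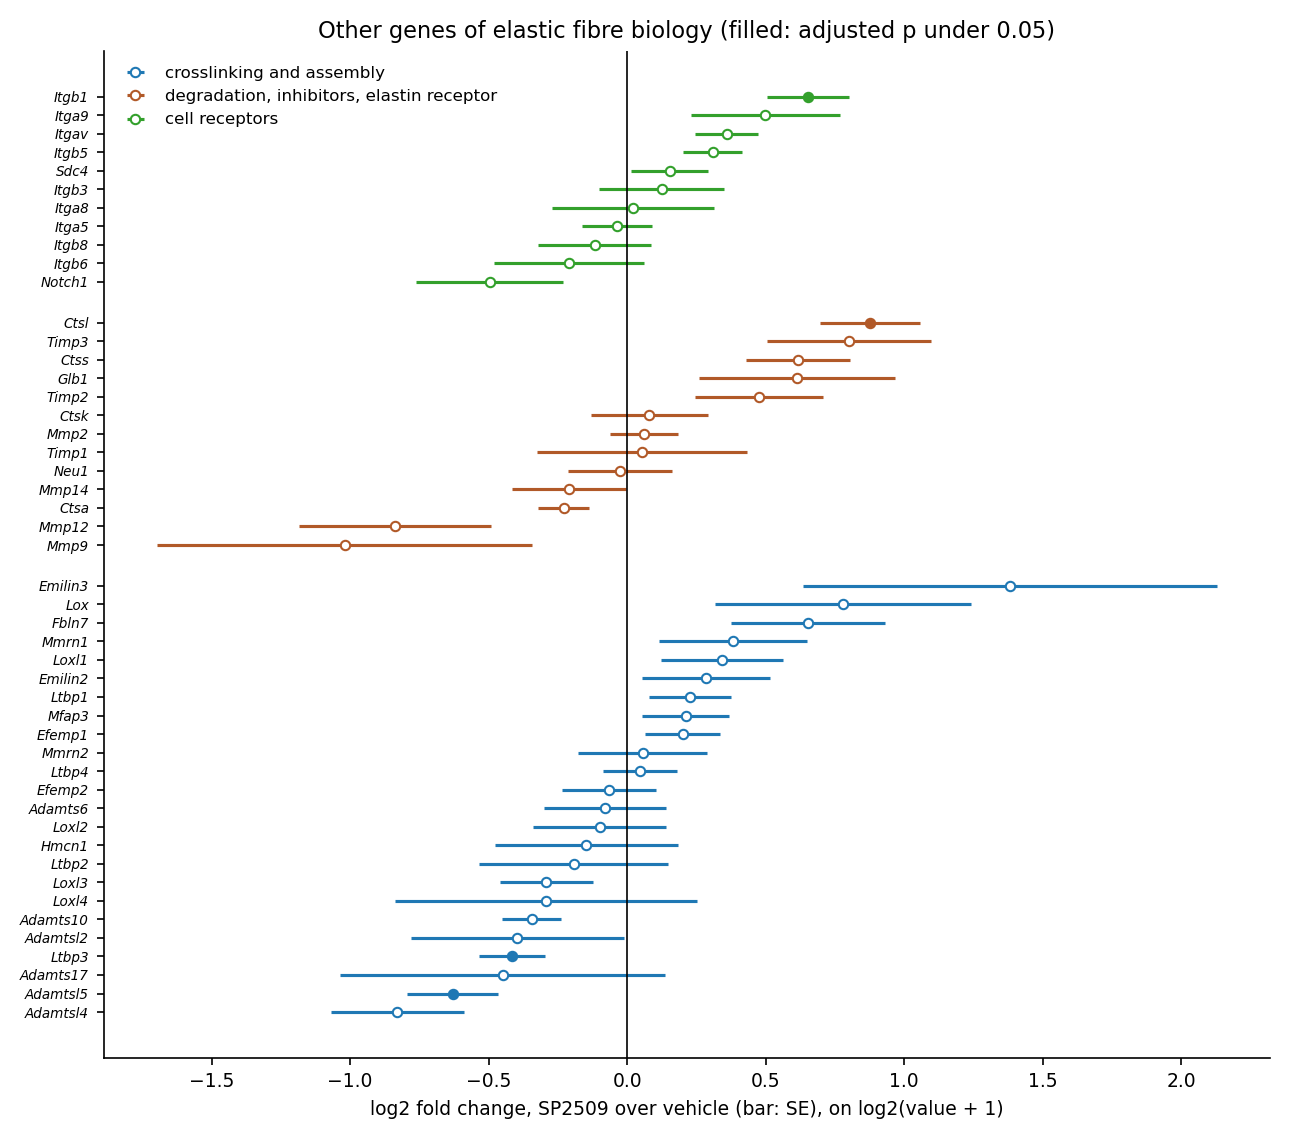
Log2 fold change, SP2509 over vehicle on log2(value + 1), with its SE, for the tested genes of the crosslinking and assembly list (24, blue), the degradation and elastin receptor list (13, brown) and the cell receptor list (11, green). Filled points have a limma adjusted p under 0.05: Adamtsl5 and Ltbp3 below 0, Ctsl and Itgb1 above.

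The tissue around the fibres differed between libraries, and the values of its marker lists stand beside those of the 10 genes. Calls in these lists are to be read beside the 4.15% of all tested genes called lower and the 4.95% called higher. Adventitial fibroblast markers, a subset known for Mfap5 and Fbn1, had log2 fold changes of 0.08 to 0.72 over 8 genes with none passing and a median of 0.44, and their summed level ran from 5032 to 7972 in vehicle and from 7818 to 10102 in SP2509. The smallest p-values among them belonged to Clec3b at 0.71 ± 0.21 (SE, limma adjusted p = 0.0535), Ly6a at 0.48 ± 0.15 (0.0560) and Pi16 at 0.72 ± 0.23 (0.0627). Markers of vascular smooth muscle, a source of elastin, and of pericytes had a median of 0.20 over 11 genes. Of these 1 was lower (Mcam, -0.47 ± 0.11, limma adjusted p = 0.0254, and 0.110 with the close pairs merged). Their summed levels were 10790 to 16518 in vehicle and 12999 to 14294 in SP2509. Endothelial markers had a median of 0.09 over 10 genes with none passing, at 6677 to 11416 and 8115 to 10833.

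Among 9 Schwann cell markers, all 9 with a negative log2 fold change, 2 fell, among them Ncmap (-0.98, limma adjusted p = 0.0379, and 0.136 with the close pairs merged). The median was -0.67 and the summed level ran from 10458 to 21210 in vehicle and from 5817 to 12882 in SP2509. Of 11 keratinocyte markers 1 rose (Krt17 at 1.24, limma adjusted p = 0.0319, and 0.121 with the close pairs merged) with a median of 0.65, at 97960 to 135165 and 69494 to 330013. Skeletal muscle markers had a median of 0.97 over 12 genes with none passing, at 188875 to 397202 and 328066 to 900166, the last in SP2509 replicate 6. Gland markers summed to 37.1 to 507 in vehicle and to 333272 and 344197 in the treated replicates 4 and 5, which also had the highest Emilin1 and Lox, against 22.3 to 881 in the other treated libraries; 4 of the 9 were tested, none passed, and Dcpp1 was at 0 in all vehicle libraries. Of the tested markers of adipocytes (8, median 0.75), cartilage (4, median 0.81) and leukocytes (7, median 0.11) none passed. The part of these cell types in the values of the 10 genes was not tested.

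The genes whose levels most resembled Eln and Fbn1 across the 10 libraries, after the mean of each group was taken away, are given as a description. For Eln they were Anapc4 (Pearson r = 0.970), Nit1 (0.949), the basement membrane zone collagen Col15a1 (0.944), the GDNF receptor gene Gfra1 (0.935) and Lamtor3 (0.935). For Fbn1 they were Notch1 (0.957), Klhl36 (0.942), Tmem189 (0.939), Slfn8 (0.937) and Adgrg6 (0.935). All 10 of these genes had their highest vehicle value in vehicle replicate 2, as Eln and Fbn1 did: Notch1 was at 1972 there and at 681 to 806 in the other vehicle libraries, and Col15a1 at 608 and at 273 to 454. Genes measured in the same library share its depth and tissue makeup, and the 5 genes are the top of a ranking over all tested genes.

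Reads from 4 of the 10 genes could in part belong to a neighbour, because the strand setting of the counting is not given in the sources used here. Fbn1 shares 2442 exonic bases with Gm9913 on the other strand, which was listed at 0 to 6.29 normalised reads. Eln shares 267 with Gm30003, at 0 to 7.27, and Mfap4 shares 89 with Mapk7, at 335 to 632. Fbn2 shares 129 with Gm26507, for which no value was used here.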

How the data were processed

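Polyadenylated RNA of 10 tongue libraries was taken from TRIzol extracts on poly-T beads and made into cDNA from random hexamer primers, per the labels' protocols. HISAT2, featureCounts and the build mm10 stand in the submitters' processing notes without versions. The deposited signal values are read counts divided by 1 size factor per library: all lay within 0.01 of whole multiples of the value of 1 read (100%), and the factors matched DESeq2's median of ratios. A single read counts for 0.898 to 1.85 normalised reads in a vehicle library and for 0.727 to 0.873 in a treated one, which makes low values coarser in vehicle.

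The 17088 genes that reached 10 normalised reads in 4 or more libraries entered limma 3.58.1 (R 4.3.3, trend and robust). The fit was on log2(value + 1), over all 10 libraries without covariates. The added 1 draws ratios of low values toward 0. Estimates of low genes were not always the smaller ones, as Mfap2 was at 0.31 in limma and at 0.18 in edgeR. Group differences relative to fibroblast markers used exact permutation tests (210 regroupings, or 70 of 8 units). Alternatives were another pseudocount, filter or scaling, library weights, a replicate block, a length and GC correction, count tests on the whole reads (edgeR 4.0.16, DESeq2 1.42.0), merged pairs and each library left out. The limma fit was tested on simulated counts drawn independently for each library, without close pairs. Coordinates come from GENCODE M21 on GRCm38, the build of mm10, and coordinates of Fbn2 are not reported here.

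The members and lists were chosen with earlier results of these data known. Beyond the 10 genes and Kdm1a, the text names at most 4 genes of each list, those with the smallest p, and the 5 genes most like Eln and Fbn1. Lox, Loxl1, Ltbp4, Efemp2, Mmp12, Mmp2 and Dcpp1 fall outside that rule and were named after their values were seen. One gene that the rule takes is not reported here.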

Additional observations from a re-analysis of the deposited data

Results flagged for a closer look

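Within each group, the highest and the lowest library of each of the 10 genes was compared with its nearest neighbour, and 3 of 20 such groups held a library far from the others. Chance alone sets apart a library in about 1 in 20 groups of independent libraries. The SP2509 groups were taken as 6 single libraries with the close pairs not merged, so that rate need not hold for them. Fbn1 was at 795 normalised reads in vehicle replicate 2, where the other vehicle libraries lay between 531 and 542. Fbln1 was at 132 in vehicle replicate 1, with the others at 284 to 311. Fbln5 was at 415 in SP2509 replicate 6, with the others at 203 to 276.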

How the results depend on the processing

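Across 25 alternatives the log2 fold changes of Fbn1 (-0.77 to -0.55), Eln (-0.65 to -0.29), Fbln1 (0.51 to 0.95), Fbln2 (0.19 to 0.65) and Mfap4 (-0.51 to -0.13) kept their sign. The small changes of the other genes did not always do so, and the cause was not tested. Fbn2 was at -0.0178 after TMM scaling outside mitochondrial genes, -0.12 with the close pairs merged, -0.0301 in edgeR, -0.15 in edgeR with summed pairs and -0.0391 in DESeq2, and with 1 library left out it ran from -0.18 to 0.31. With library weights, Fbln5 was at -0.14, Mfap2 at -0.0254 and Emilin1 at -0.10. Emilin1 was at -0.0252 after quantile normalization, -0.00011 with the pairs merged and -0.13 without SP2509 replicates 4 and 5. Leaving out 1 library gave -0.0681 to 0.29 for Fbln5, -0.0058 to 0.54 for Mfap2, -0.022 to 0.22 for Mfap5 and -0.031 to 0.13 for Emilin1.

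Of the 10 genes, the number lower was 2 after quantile normalization, with library weights and in DESeq2 (Fbn1 and Eln), and 0 with the pairs merged, with summed pairs in edgeR and without SP2509 replicates 4 and 5; leaving out 1 library gave 1 to 2. The number higher was 1 (Fbln1) with the filter at 50, library weights, the replicate block, the length and GC correction and DESeq2, and 0 to 1 with 1 library left out. Of the crosslinking and assembly genes, 4 were lower with the filter at 50, quantile normalization, TMM, library weights and DESeq2, 1 without a filter, and 0 without trend and robust fitting, with pairs merged, with summed pairs, without SP2509 replicates 4 and 5 and after the length and GC correction; leaving out 1 library gave 0 to 4.

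Relative to fibroblast markers, Fbn2 was at -0.10 over 8 units and -0.0774 without the collagens, and Emilin1 at -0.0374 without the collagens. Fbln1 was at 0.76 over 8 units and no longer passed. Leave-one-out ranges were -0.23 to 0.28 for Fbn2, -0.70 to -0.25 for Eln, 0.60 to 0.93 for Fbln1, 0.0829 to 0.51 for Mfap2, -0.55 to -0.0855 for Mfap4, 0.00516 to 0.26 for Mfap5 and -0.0649 to 0.16 for Emilin1. Eln without vehicle replicate 3, Mfap2 without vehicle replicate 4, Mfap4 without vehicle replicate 3 and Mfap5 without vehicle replicate 2 then had an exact permutation p under 0.05.

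With the replicate number as a replicate block, SP2509 replicates 5 and 6 were left out. The log2 fold change of Fbln1 was then 0.95 (limma adjusted p = 0.0295), Fbln5 was at -0.00817 and Emilin1 at -0.00814. Without a block, leaving out SP2509 replicate 6 alone gave 0.91 for Fbln1 (limma adjusted p = 0.0166), 0.0037 for Fbln5 and 0.0641 for Emilin1. Libraries of both groups that share a number had deviations correlated at 0.126, 0.0324, -0.198 and 0.125, and 1 of 4 correlated best with its own number, so the numbers were not taken to pair libraries. Fbn2 and Mfap2 had the fewest reads of the 10 genes. Over all genes, 846 higher and 709 lower calls became 0 and 0 with the pairs merged or summed, 219 and 156 without SP2509 replicates 4 and 5, 553 and 479 without a filter, 490 and 481 without trend and robust fitting, 2381 and 1778 with library weights and 1606 and 1394 in DESeq2. Leaving out 1 library gave 171 (without vehicle replicate 1) to 1971 (without SP2509 replicate 6) higher and 107 to 1488 lower.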
